A study of Rattus norvegicus with 4 samples.

Results

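The miR-17-92 and miR-106b-25 clusters are 2 related groups of microRNAs (miRNAs), short RNAs that lower the translation and stability of messenger RNAs carrying a match to their seed, the bases 2 to 8 of the mature strand. Their main strands were followed here in samples labelled as rat gracilis, a thigh muscle. The members were chosen by their names on the array, which carry the prefix rno for rat: rno-miR-17-5p, rno-miR-18a, rno-miR-19a, rno-miR-19b, rno-miR-20a and rno-miR-92a of miR-17-92, and rno-miR-106b, rno-miR-93 and rno-miR-25 of miR-106b-25. The prefix is left out below. All 9 were on the array, among 350 rat miRNAs in all.

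By the labels, muscle was taken from male Sprague-Dawley rats after 4 h of ischemia and reperfusion (2 samples) or after a sham operation (2 samples), and no age of the animals is stated in the labels. The labels give 4 h of reperfusion, whereas the text of the series gives 24 h, so the time is not settled. Total RNA was labelled with Cy3 and hybridised in 1 colour, with 1 array per sample. Each value is the total signal of a miRNA in intensity units, with the scanner software's error of that signal. The series text calls the samples biological replicates, with 2 per group, and so few arrays limit how precise any value below can be.

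Each cluster is transcribed as 1 precursor that is cut into several miRNAs. miR-17-92 is activated by the transcription factors Myc and E2F, and in mouse and human cells its members promote cell division and survival. miR-106b-25 lies inside Mcm7, a gene of the replicative DNA helicase, and is expressed with it. In the RefSeq annotation of rat build GRCr8 all 3 hairpins of miR-106b-25 fall within Mcm7 on the same strand. In tissue repair such miRNAs are of interest because regrowing vessels, satellite cells and connective tissue divide.

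The sequences are shown because they divide the members by seed in another way than the 2 loci do. miR-17-92 spans 785 bases at chr15:98587848-98588632 on the plus strand of GRCr8. miR-106b-25 spans 483 bases at chr12:22156641-22157123 on the minus strand, from the miR-25 hairpin to the mature miR-106b. The mature strands, from RefSeq (GRCr8) and found for 9 of 9 members, read 5′ to 3′ with the seed in capitals:
miR-17-5p: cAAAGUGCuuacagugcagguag
miR-20a: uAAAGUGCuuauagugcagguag
miR-106b: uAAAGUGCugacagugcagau
miR-93: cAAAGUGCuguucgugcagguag
miR-18a: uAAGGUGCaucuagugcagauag
miR-19a: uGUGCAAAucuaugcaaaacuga
miR-19b: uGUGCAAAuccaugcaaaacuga
miR-92a: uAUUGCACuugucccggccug
miR-25: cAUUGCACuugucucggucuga

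There were 4 seeds among the 9 members. The first was shared by 4 members across both clusters, miR-17-5p and miR-20a of miR-17-92 with miR-106b and miR-93 of miR-106b-25. miR-92a and miR-25 shared another across the clusters, miR-19a and miR-19b shared a seed within miR-17-92, and miR-18a had its own. Most sequences with a common seed are close along their whole length. With positions counted from 1 at the 5′ end and the base of the first-named miRNA first, miR-19a and miR-19b differed by U11C, miR-17-5p and miR-20a by C1U and C12U, and miR-92a and miR-25 by U1C, C14U and C18U over their first 21 bases. The files used here hold no probe sequences, so how far such near-identical miRNAs share signal was not tested.

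The array cannot assign 3 of the members to a single locus. The mature sequences of miR-17-5p, miR-19b and miR-92a are also encoded in a paralogous cluster on the minus strand of the X chromosome, at chrX:137342777-137343647 in GRCr8. Of the miRNAs particular to that X-linked cluster by sequence, miR-363 had signals of 2.15 and −0.63 units in ischemia-reperfusion replicates 1 and 2 and −0.99 and 4.43 units in sham replicates 1 and 2, and was called detected on no array. miR-20b-5p gave −0.0773 and 2.66 units after ischemia-reperfusion, with a scanner error of 1.86 units on the second value, against −6.91 and 0.40 units in sham muscle. It was called detected on 1 array, that of ischemia-reperfusion replicate 2. miR-92b, a relative of miR-92a from chromosome 2, was detected on no array.

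The arrays differed in brightness and in tissue markers, which bears on every comparison. Ischemia-reperfusion replicate 2 was the dimmest: the 75th percentile of the 78 miRNAs detected on all arrays was 995 and 92 units in ischemia-reperfusion replicates 1 and 2, and 3380 and 1171 units in sham replicates 1 and 2. Each array's signals were divided by this percentile, and a level below means log2 of the signal so scaled. Of 5 skeletal muscle marker miRNAs, 5 and 0 were detected in ischemia-reperfusion replicates 1 and 2, against 5 in each sham sample. Summed over the list, the signal reached 90702 and 10.1 units in the ischemia-reperfusion samples, against 211933 and 113072 units in the sham samples. miR-133b, one of these markers, had 75842 units in ischemia-reperfusion replicate 1 and 1.93 units, not detected, in replicate 2, against 102374 and 94649 units in the sham samples. The markers of ischemia-reperfusion replicate 2 thus go against its tissue label. It is called by that label below. The differences of the clusters and seed families, and the gaps between members, are also given without it. Epithelial miRNAs were detected for 2 and 6 of 7 list members in ischemia-reperfusion replicates 1 and 2 and for 0 of 7 in each sham sample, with summed signals of 347 and 581 units against −29.6 and 11.6 units. The 2 detected in ischemia-reperfusion replicate 1, miR-205 and miR-200c, have scanner errors of 2.50 and 2.47 units there, against 16.9 and 11.7 units at similar signals in replicate 2, and were the only 2 of that array's 372 values written with more than 6 significant digits. The sham samples also differed from each other. Of 2 endothelial marker miRNAs, 1 was detected in each ischemia-reperfusion sample, against 2 and 1 in sham replicates 1 and 2. Their summed signal was 234 and 43.3 units after ischemia-reperfusion, against 4429 and 236 units in the sham samples. The part of these differences in tissue content in the results below was not tested. In bulk tissue, fewer cells of a type and less RNA per cell cannot be told apart.

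All members except miR-18a were detected on all 4 arrays. As deposited, every one of these 8 had its lowest signal in ischemia-reperfusion replicate 2.

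**Figure D1:**
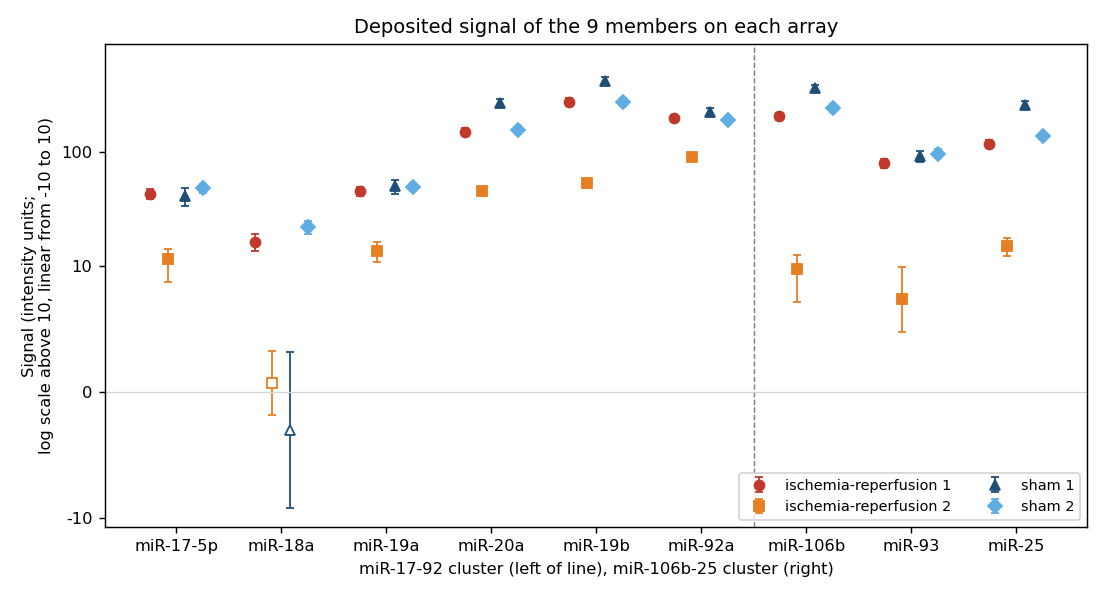
Deposited signal (intensity units, axis logarithmic above 10 and linear below) of the 9 members on each of the 4 arrays, with bars for the scanner error and open symbols where the miRNA was not called detected. Ischemia-reperfusion replicate 2 (orange squares) is lowest for the 8 members detected on all arrays, at 7.33 to 90.9 units, and miR-18a is open on 2 arrays.

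The members with the miR-17 seed come first. miR-17-5p, which represses the cell cycle inhibitor p21 in human cells, had signals of 42.9 and 11.4 units in ischemia-reperfusion replicates 1 and 2, against 40.9 and 48.1 units in sham replicates 1 and 2. The signal of ischemia-reperfusion replicate 2 is low, and the other 3 lie close together. After scaling its levels were −4.54 and −3.01 after ischemia-reperfusion and −6.37 and −4.61 in sham muscle, so the groups did not overlap, although ischemia-reperfusion replicate 1 and sham replicate 2 differed by only 0.0706.

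miR-20a, its near copy in the same cluster, which represses E2F factors in human cells, gave 152 and 45.2 units after ischemia-reperfusion, against 274 and 157 units in sham muscle. Its scaled levels were −2.71 and −1.03 against −3.62 and −2.90. Again ischemia-reperfusion replicate 2 was highest, sham replicate 1 lowest, and the other arrays lay side by side.

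miR-106b, which also represses p21 in human cells and has the same seed but comes from the Mcm7 locus, behaved otherwise on ischemia-reperfusion replicate 2. Its signals were 207 and 9.73 units after ischemia-reperfusion, against 366 and 246 units in sham muscle. The scaled levels, −2.26 and −3.24 against −3.21 and −2.25, overlapped between the groups. Ischemia-reperfusion replicate 2 was here the lowest of the 4, but it was close to sham replicate 1. The scanner error of its level was 0.39 on the log2 scale, so these 2 arrays cannot be ranked. miR-93, its neighbour, which with miR-106b represses E2F1 in human tumour cells, gave 80.6 and 7.33 units after ischemia-reperfusion, against 92.2 and 97.3 units in sham muscle. Its scaled levels were −3.63 and −3.65 against −5.20 and −3.59, again overlapping, with only sham replicate 1 apart. On ischemia-reperfusion replicate 2 the signals of miR-106b and miR-93 were 3.72 and 2.81 times their scanner error, the lowest such ratios among the 8 members.

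miR-18a, reported in mouse tumour cells to repress anti-angiogenic proteins, was detected on 2 arrays. It had 16.2 and 0.69 units in ischemia-reperfusion replicates 1 and 2, the second value not detected, against −3.04 units, not detected, and 22.1 units in sham replicates 1 and 2. Each group thus held 1 detected and 1 undetected sample. miR-18a was not detected on both arrays of any group and was not tested, and no fold change is given for it.

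The miR-19 seed carries much of the pro-survival activity of the cluster in mouse lymphoma. miR-19a had 45.2 and 13.5 units after ischemia-reperfusion, against 50.2 and 49.3 units in sham muscle, with scaled levels of −4.46 and −2.77 against −6.07 and −4.57. miR-19b had 277 and 53.1 units against 429 and 279 units, and scaled levels of −1.85 and −0.79 against −2.98 and −2.07. Neither overlapped between the groups after scaling, and in both the nearest values across the groups, those of ischemia-reperfusion replicate 1 and sham replicate 2, were 0.22 apart or less.

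The pair with the miR-92 seed holds a member of each cluster. miR-92a, which limits vessel growth in mouse ischemia models, had 199 and 90.9 units after ischemia-reperfusion, against 226 and 194 units in sham muscle. Its scaled levels were −2.32 and −0.0169 against −3.90 and −2.59, and its value in ischemia-reperfusion replicate 2 stood further above the sham samples than that of any other member. miR-25, which lowers the calcium pump Serca2a in mouse heart, had 118 and 14.9 units after ischemia-reperfusion, against 262 and 138 units in sham muscle, with scaled levels of −3.07 and −2.63 against −3.69 and −3.09. The groups of miR-25 did not overlap, but the closest values, of ischemia-reperfusion replicate 1 and sham replicate 2, were only 0.0170 apart.

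The comparison of the samples labelled ischemia-reperfusion with the sham samples called no member. limma with Benjamini-Hochberg adjustment over all 159 tested miRNAs called 0 of the 8 members at 0.05 and 0 of 159 in all (0% of those tested). At an unadjusted p under 0.05 it passed 0 members, against 2 of 159 (1.26%). A miRNA was tested if either group detected it on both of its arrays, and the 8 members passed this filter through both groups. Relative to each array's percentile, 7 of 8 members had a positive log2 difference (ischemia-reperfusion minus sham), where 61.6% of all tested miRNAs did. Among the 78 miRNAs detected on all arrays, as these members were, 71.8% did. Both ischemia-reperfusion samples lay above both sham samples for 6 of 8 members, against 11.9% of all tested miRNAs, and below them for 0 of 8, against 13.2%. These counts depend on the scaling: 5 members lay above when the percentile was taken over all miRNAs (8.81% of those tested), 5 with median scaling (9.43%), 4 with quantile normalization (6.29%) and 0 without scaling (1.26%), where 6 of 8 lay below (76.7%). Taken alone, ischemia-reperfusion replicate 1 lay above both sham samples for 6 of 8 members (16.4% of tested miRNAs), and so did replicate 2 (55.3%). For the counts above or below both sham samples, the share among those 78 miRNAs is not given.

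With all 4 arrays, the 5 tested members of miR-17-92 had the larger differences. The log2 difference was 2.08 ± 1.22 (SE of limma, n = 2 per group) for miR-92a, a ratio of 4.22, with an adjusted p of 0.817 in limma. It was 1.71 ± 1.15 for miR-17-5p and 1.71 ± 1.14 for miR-19a. miR-20a followed at 1.39 ± 1.06 and miR-19b at 1.20 ± 0.99. All 5 differences were positive and exceeded their SE, with a limma adjusted p of 0.817 for each.

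In miR-106b-25 the differences were smaller than their limma SE. They were 0.76 ± 1.02 for miR-93, 0.54 ± 0.92 for miR-25 and −0.0216 ± 0.99 for miR-106b (SE). Over the 8 members the limma adjusted p ran from 0.817 to 0.989. The median difference was 1.71 over the 5 members of miR-17-92 and 0.54 over the 3 of miR-106b-25. Beside these, the median was 0.45 over all 159 tested miRNAs and 0.61 over the 78 detected on all arrays. In all, 20 tested miRNAs had a larger difference than miR-92a. Without any scaling the median of all tested miRNAs was −2.18, only 9.43% of them had a positive difference and all 8 members were negative. Relative to that common shift the members' median was 0.84 above all tested miRNAs with the main scaling and 0.76 above without scaling. Against only the 78 miRNAs detected on all arrays it was 0.69 above, with the main scaling.

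**Figure D2:**
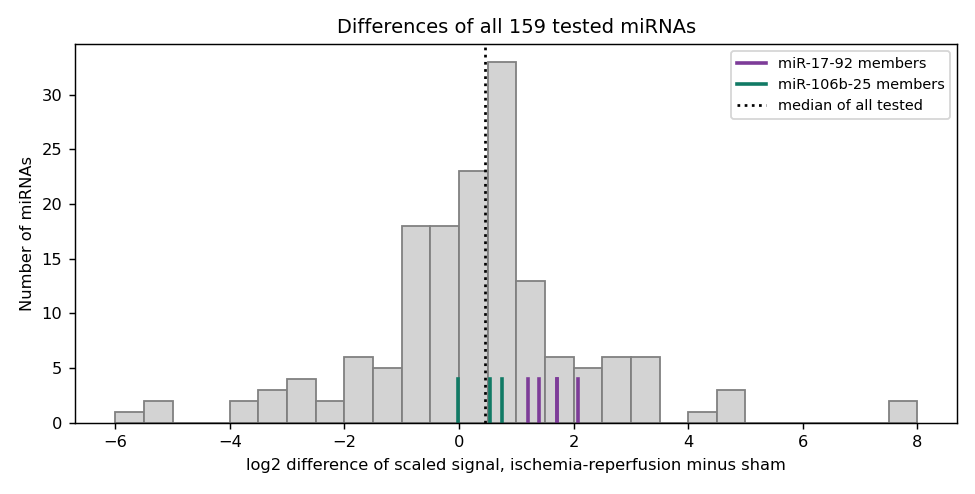
Histogram of the log2 difference of scaled signal (ischemia-reperfusion minus sham) for the 159 tested miRNAs, with purple lines for the miR-17-92 and green lines for the miR-106b-25 members. The purple lines lie at 1.20 to 2.08, right of the median of 0.45, and the green lines at −0.0216 to 0.76, on both sides of it.

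The replicates of a group were often far apart. After ischemia-reperfusion, replicate 2 minus replicate 1 was 1.05 to 2.31 for members of miR-17-92 and −0.98 to 0.44 for those of miR-106b-25. In sham muscle replicate 2 lay above replicate 1 for all 8 members, by 0.60 to 1.76 on the log2 scale. For 4 of 8 this spread was larger than the difference between the groups. Its median was 1.13 over the members, against 0.21 over the 78 miRNAs detected on all arrays. The scanner error of the differences was 0.12 to 0.28, against an SE of 0.92 to 1.22 from the spread between arrays. Ischemia-reperfusion replicate 1 was within 0.27 of sham replicate 2 for every member, and within the scanner error of that difference for 5 of 8. Within 2 such errors it was so for all 8. These 2 arrays were also close in general, with a median absolute difference of 0.15 over all 159 tested miRNAs. Against the sham mean, ischemia-reperfusion replicate 1 alone stood at 0.32 to 0.95 over the 8 members. Ischemia-reperfusion replicate 2 alone stood at 1.73 to 3.23 for the members of miR-17-92 and at −0.51 to 0.76 for those of miR-106b-25. Without ischemia-reperfusion replicate 2 the medians were thus 0.86 for miR-17-92 and 0.47 for miR-106b-25, and miR-106b turned positive (0.47). The clusters then overlapped, with miR-93 at 0.77 above miR-19b at 0.68 and miR-20a at 0.55. Without sham replicate 1 the medians were 0.95 and −0.0482, and miR-93 turned to −0.0482 as well. Without ischemia-reperfusion replicate 1 and without sham replicate 2 the median of miR-17-92 was 2.48 and 2.46, and miR-106b stood at −0.51 and 0.46.

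**Figure D3:**
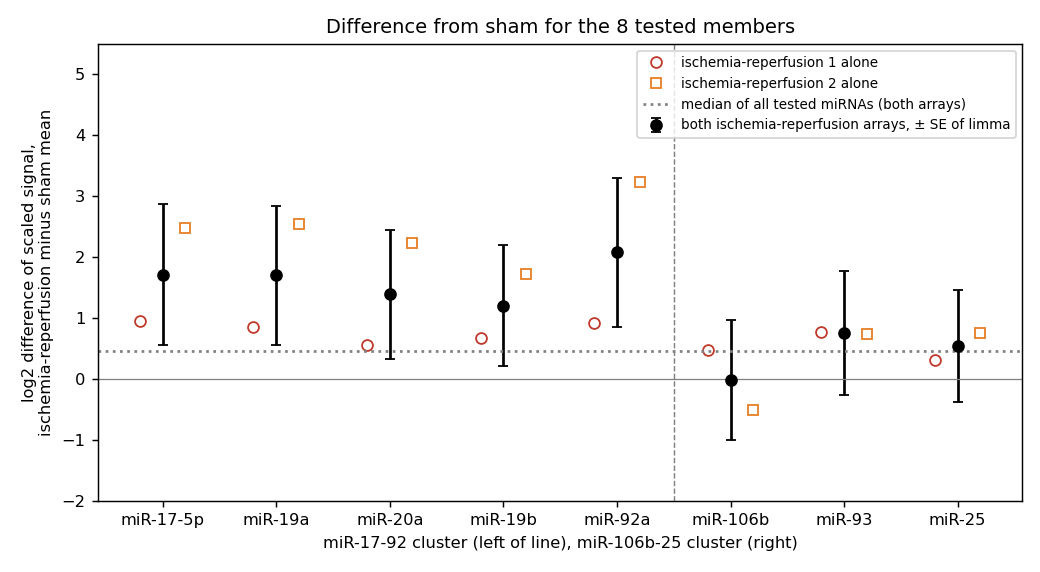
Log2 difference of scaled signal from the sham mean for the 8 tested members: black points with bars give both ischemia-reperfusion arrays with the SE of limma, open red circles replicate 1 alone and open orange squares replicate 2 alone. For miR-17-92, left of the dashed line, the squares at 1.73 to 3.23 lie above the circles at 0.55 to 0.95. For miR-106b-25 the squares lie at −0.51 to 0.76 and the circles at 0.32 to 0.77, so the circles of the clusters overlap.

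The gap between the clusters does not depend on the scaling factor of an array, because a single factor cancels. The mean log2 level of the detected miR-17-92 members minus that of miR-106b-25 was −0.19 and 1.65 in ischemia-reperfusion replicates 1 and 2, against −0.56 and −0.37 in sham replicates 1 and 2. Ischemia-reperfusion replicate 2 stood apart, and the other 3 samples lay between −0.56 and −0.19. The gap averaged 0.73 ± 1.30 after ischemia-reperfusion and −0.46 ± 0.13 in sham muscle (SD, n = 2 each), a difference of 1.19 that is smaller than the SD of the ischemia-reperfusion samples. Leaving out ischemia-reperfusion replicate 2 brought it to 0.28 and leaving out replicate 1 to 2.11. With quantile normalization, which is not a single factor, it was 1.48. No test is given for a score over members chosen by name.

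The same split appeared between miRNAs with a common seed. The level of miR-92a minus that of miR-25 was 0.75 and 2.61 in ischemia-reperfusion replicates 1 and 2 and −0.21 and 0.50 in sham replicates 1 and 2. For miR-20a minus miR-106b the values were −0.45 and 2.21 after ischemia-reperfusion and −0.42 and −0.64 in sham muscle. For miR-17-5p minus miR-93 they were −0.91 and 0.64 against −1.17 and −1.02. In all 3 pairs the miR-17-92 member was highest, relative to its seed mate, in ischemia-reperfusion replicate 2. Only changes of such a gap between arrays can be read, since 2 probes need not report the same amount of RNA with the same signal. As a mean over the family, the level of the miR-17 seed was −3.01 ± 0.39 after ischemia-reperfusion and −3.97 ± 0.89 in sham muscle (SD, n = 2 each), a log2 difference of 0.96. That of the miR-19 seed was −2.47 ± 0.97 against −3.92 ± 0.85, a difference of 1.46, and that of the seed of miR-92a and miR-25 was −2.01 ± 0.97 against −3.32 ± 0.68, a difference of 1.31. Each difference depended on single arrays, as a comparison added after the data were seen showed. For the miR-17 seed leaving out ischemia-reperfusion replicate 2 gave 0.68, leaving out sham replicate 1 gave 0.33 and leaving out sham replicate 2 gave 1.59. For the miR-19 seed it was 0.77 without ischemia-reperfusion replicate 2 and 0.85 without sham replicate 1, and reached 2.14 without ischemia-reperfusion replicate 1. For the seed of miR-92a and miR-25 it was 0.62 without ischemia-reperfusion replicate 2 and 0.83 without sham replicate 1, and reached 2.00 without ischemia-reperfusion replicate 1.

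**Figure D4:**
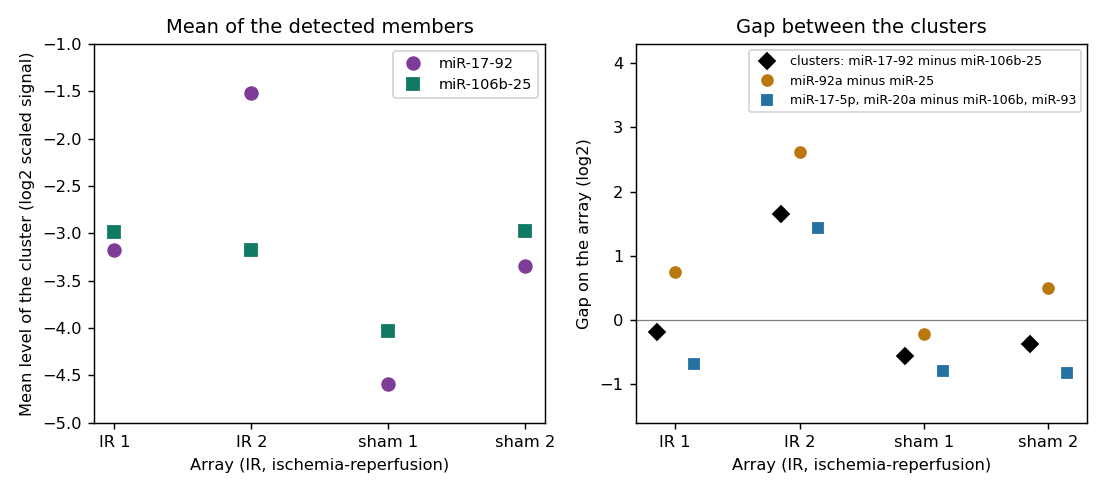
Left, mean log2 scaled signal of the members detected on all arrays, by cluster and array. Right, gap between the clusters and between their same-seed members on each array; ischemia-reperfusion (IR) replicate 2 has a cluster gap of 1.65, while the other 3 arrays lie at −0.56 to −0.19.

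Across the 4 arrays, members of a cluster varied on average more alike than members with a common seed, though less so in miR-106b-25. Likeness was measured, after each miRNA's log2 levels were centred on their mean, as the largest gap between 2 miRNAs on any array, which again does not depend on a scaling factor. The closest pair was miR-17-5p and miR-19a, neighbours with different seeds, with a largest gap of 0.13. Next were miR-19b and miR-20a at 0.41, and miR-19a and miR-92a at 0.49. The most unlike pair was miR-92a and miR-106b at 2.69, at ischemia-reperfusion replicate 2. The mean was 1.66 over the 5 pairs with a common seed in different clusters and 0.61 over the 10 pairs with different seeds in 1 cluster. Over the 15 pairs across clusters the mean was 1.52 and over the 13 pairs within a cluster 0.64, a ratio of 2.39. The within-cluster mean was 0.58 over the 10 pairs of miR-17-92 and 0.82 over the 3 pairs of miR-106b-25. miR-93 and miR-25 were closer to miR-19b of the other cluster, at 0.76 and 0.64, than to miR-106b, at 0.87 and 0.99. For 14 of the 15 pairs across clusters the largest gap was at ischemia-reperfusion replicate 2. Without that sample the means were 0.35 across and 0.36 within clusters, a ratio of 0.99, so the split rests on 1 array. For pairs with a common seed in different clusters the mean was then 0.38, against 0.32 for different seeds in 1 cluster. These values are a description, as all pairs share the same 4 arrays.

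**Figure D5:**
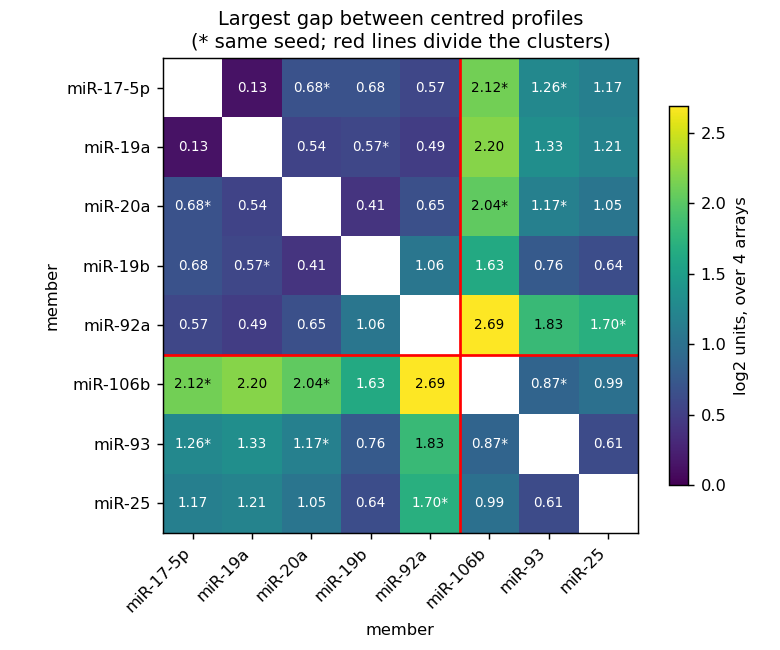
Largest gap (log2 units) over the 4 arrays between the centred profiles of each pair of the 8 members, with red lines dividing the clusters and asterisks for pairs with a common seed. Blocks within a cluster hold values of 0.13 to 1.06, and the block across clusters holds 0.64 to 2.69.

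Of the 70 other miRNAs detected on all 4 arrays, those nearest to the mean profile of the members were miR-103, with a largest gap of 0.36, miR-140* at 0.47, miR-324-3p at 0.50, miR-199a-5p at 0.51 and miR-130a at 0.58. For each cluster alone, a comparison added after these values were seen, the nearest were miR-451, a red-cell miRNA, for miR-17-92 (0.40) and miR-15b, which restrains cyclins, for miR-106b-25 (0.30). miR-451 had 1138 and 264 units after ischemia-reperfusion, against 1181 and 713 units in sham muscle, a log2 difference of 1.97 after scaling. miR-144, the other miRNA of the red-cell list, had 144 and 1.41 units, the second value not detected, against 178 and 149 units, and a log2 difference of −0.80. The 2 clusters thus had different nearest miRNAs over the same 4 arrays, which include ischemia-reperfusion replicate 2. On that array the mean level of miR-17-92 minus that of miR-106b-25 was 1.65, against −0.56 to −0.19 on the others. Which miRNAs are nearest without it was not tested.

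The other strands of the hairpins are mostly degraded after processing. On the array were 4 of the 13 listed: miR-17-3p, miR-20a*, miR-106b* and miR-25*. None was detected in ischemia-reperfusion replicate 1 or in sham muscle. miR-106b* gave −0.87 and 7.44 units in ischemia-reperfusion replicates 1 and 2 and −7.57 and 1.28 units in sham muscle, with a scanner error of 2.00 units on the detected value. That signal was 3.72 times its error, the same ratio as for the main strand of miR-106b on this array. miR-25* was detected in ischemia-reperfusion replicate 2 alone, at 2.06 units with an error of 1.92 units. Both detected other strands belong to miR-106b-25, on the array where the main strands of miR-106b and miR-25 were dimmest, at 9.73 and 14.9 units. miR-17-3p and miR-20a* were detected on no array.

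Other miRNAs tied to cell division are given beside the background of all 159 tested miRNAs, of which 61.6% had a positive difference, 0 were called and the median was 0.45. Of 17 listed miRNAs that restrain the cell cycle (let-7, miR-15/16, miR-26 and miR-34 families), 15 were tested, with 9 positive and 6 negative differences, 0 called and a median of 0.0674. Of 3 other miRNAs that promote proliferation, 2 were tested, both with a positive difference, a median of 3.93 and neither called. The 3 were miR-21, miR-221 and miR-222. Their summed signal was 623 and 4030 units in ischemia-reperfusion replicates 1 and 2, against 295 and 676 units in sham replicates 1 and 2. Most of each sum was miR-21, at 592 and 3898 units against 276 and 628 units. The high sum was thus that of the sample without detected muscle markers. Beside them, the leukocyte list had 4 and 2 of 4 miRNAs detected in ischemia-reperfusion replicates 1 and 2 and 3 and 4 of 4 in sham replicates 1 and 2. Its summed signal was 4115 and 32.0 units against 965 and 4955 units.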

How the data were processed

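The RNA of 4 samples was hybridised in 1 colour, and the scanner software was Agilent Feature Extraction 9.5.3, as the submitters' processing notes name it. Per the file headers, a deposited file gives for each miRNA a total signal intensity, an error of it and a detection flag. The deposited intensities are linear, unscaled, and below 0 for 90 to 132 of the 350 miRNAs on an array. The deposited value table held the same numbers (0 of 1488 values differed, tolerance 0), linear and uncentred, with column medians of 5.53 and 2.90 units for ischemia-reperfusion replicates 1 and 2 and 11.3 and 7.60 units for sham replicates 1 and 2. No slide or scan date is given in the files or labels used here, so no batch could be tested.

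Groups came from the sample titles. Left out were 22 control features. Signals were scaled to the 75th percentile of the 78 miRNAs that every array detected, floored at the lowest scaled signal called detected on any array (log2 −9.32), and put on the log2 scale. The 159 miRNAs that either group detected on both arrays were fitted with lmFit and eBayes of limma 3.58.1 (R 4.3.3), two-sided, with a Benjamini-Hochberg threshold of 0.05. The fit was tested on simulated data with larger differences and less spread than the members had. That check does not show how small a difference could be called here. The members and lists were chosen with earlier results of these data known. Named are the 9 members, their listed relatives and other strands, the 5 miRNAs of most like profile, and markers. The 3 other miRNAs that promote proliferation are named as well. Older array names were matched by hand to the arms of RefSeq mature miRNAs, taking the main strand. The alternatives were other scalings, filters and floors, the value table, other variance models, a replicate block and leaving out each array.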

Additional observations from a re-analysis of the deposited data

How the results depend on the processing

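No alternative called a member. The number of miRNAs tested was 159, or 78 with only those detected on all arrays and 350 without a filter, and 0 were called except without scaling (2, both lower) and without ischemia-reperfusion replicate 1 (11, of which 2 higher and 9 lower). Leaving out 1 array gave 0 to 11 calls. At an unadjusted p under 0.05 the count was 2, and it ran from 0 to 47 over all alternatives. The direction of the members followed the scaling. The members' median of 1.30 was 0.53 when the percentile was taken over all miRNAs and −1.42 without scaling. The median of miR-17-92 turned to −1.01 without scaling. That of miR-106b-25 turned to −0.23 with the percentile of all miRNAs, −0.00955 with the median, −0.29 with quantile normalization and −2.18 without scaling, and ran from −0.0482 to 0.84 when 1 array was left out. Without scaling the differences were −1.002 for miR-17-5p, −1.01 for miR-19a, −1.51 for miR-19b, −1.32 for miR-20a, −0.64 for miR-92a, −1.96 for miR-93 and −2.18 for miR-25. With the percentile of all miRNAs miR-93 was at −0.0130 and miR-25 at −0.23, with quantile normalization they were at −0.29 and −0.16, and miR-25 at −0.00955 with the median. Leaving out 1 array gave −0.51 to 0.47 for miR-106b and −0.0482 to 1.56 for miR-93. The cause of these turns beyond the change of scale or array was not tested.

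The excess of the members' median over all tested miRNAs, a measure added after the data were seen, was 0.59 to 1.22 under every alternative run, and the gap between the clusters was 1.07 to 1.48 except when 1 ischemia-reperfusion array was left out (0.28 to 2.11). The ratio of profile gaps across and within clusters was 0.99 to 2.97 with 1 array left out, the lowest without ischemia-reperfusion replicate 2, and 2.39 to 2.80 otherwise. Where 1 array is left out, the lone sample of its group is assumed to vary like the other group. With the replicate number as a replicate block the count of calls was 0, with 13 at an unadjusted p under 0.05. Same-numbered samples deviated together only weakly (r = 0.0973 across 159 miRNAs, which are not independent), so the numbers are not taken as pairs. Signal over scanner error was 2.81 to 12.1 for the members on ischemia-reperfusion replicate 2 and 5.54 to 13.4 on the other arrays.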
